A study of Mus musculus with 12 samples.

Results

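The Schlafen genes of the mouse form 1 cluster on chromosome 11, and 7 of them, *Slfn1*, *Slfn2*, *Slfn3*, *Slfn4*, *Slfn5*, *Slfn8* and *Slfn9*, were taken by gene symbol from the 25860 genes listed in the RNA-seq data and by assigned gene name from the 23932 peaks listed in the ATAC-seq data. All 7 were listed and passed the filter on low values, and 12 peaks were assigned to them. Schlafen proteins are found in mammals and have a shared AlbA-like core. Short members such as *Slfn1* and *Slfn2* hold little more than that core, intermediate members such as *Slfn3* and *Slfn4* add a linker region, and long members such as *Slfn5*, *Slfn8* and *Slfn9* carry a helicase-like domain as well. The family was first described in developing and activated T cells, several members restrain cell growth, and many respond to type I interferon.

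The cells were CD8+ T_prog_ cells, stem-like progenitors of effector T cells, sorted from the pancreatic lymph nodes of *NOD-TCR 8.3* mice, a nonobese diabetic strain whose T cells carry a transgenic receptor for the β cell antigen IGRP. *UTX TCD* mice had floxed *Kdm6a*, the gene of the histone demethylase UTX, and an *Lck-Cre* transgene that deletes it in the T cell lineage from the thymus on, and the WT controls were littermates without Cre. All mice were female, and their age is not given in the labels. Both genotypes carried the floxed allele, which had been backcrossed from B6 to NOD. Cre was present only in *UTX TCD* mice, so effects of the transgene and of UTX loss cannot be told apart here. The labels describe the sort as Ly108 without CXCR6, whereas the methods use Ly108 without CD39. RNA-seq covered 3 libraries per genotype, and ATAC-seq, in which a transposase cuts accessible DNA, covered another 3 per genotype.

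Reads counted in genes were 146456724, 144503203 and 193568919 for the WT libraries against 61512402, 175462433 and 187275082 for the UTX TCD libraries, replicates 1 to 3 in that order here and throughout. RNA values are normalized counts, the reads of a gene divided by 1 size factor per library. *Kdm6a*, the deleted gene, stood at 28365, 28949 and 29172 in WT and at 24158.5, 24792 and 24579 in UTX TCD libraries. Every UTX TCD library was below every WT library, with a log2 fold change of -0.23 ± 0.04 (SE; limma adjusted p = 0.00114), which is within the fold limit used here. A count over the whole gene includes exons outside a deleted part, so it checks the direction of the labels and not the extent of the deletion.

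Markers of CD8+ T cells were abundant in all 6 libraries. The 7 markers summed to 1038580, 997025 and 998040 in WT and 1027410, 993078 and 932789 in UTX TCD libraries, led by *Cd8a*, and *Tcf7*, which encodes the progenitor factor TCF1, lay between 220872 and 244276. *Cxcr6*, whose protein the labelled gate excludes, was at 12757, 9619 and 13724 in WT and 5286, 5994 and 5695 in UTX TCD libraries, and *Entpd1*, which encodes CD39, did not exceed 29.6 in any library.

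Markers of B cells, myeloid cells, dendritic cells and NK cells were low beside these, whereas the γδ T cell marker *Trdc* was not. Of the B cell markers reported here, *Cd79b* was the most abundant, at 2502, 1930 and 2465 in WT against 648, 633 and 470 in UTX TCD libraries, and *Cd79a* came next, at 415, 465 and 285 against 526, 407 and 380, while *Pax5* was at most 11.1. The 7 myeloid markers summed to 180.3, 176 and 158 in WT and 78.7, 93.7 and 97.3 in UTX TCD libraries, with *S100a8* and *S100a9* listed at 0 in every library. Of these, *Lyz2*, the most abundant over the 6 libraries, had a mean of 59.5 in both genotypes, and *Fcgr3*, at 90.1, 54.3 and 90.0 in WT against 15.7, 10.4 and 26.5, and *Csf1r* were called lower. The 5 dendritic cell markers summed to 218, 186 and 188 against 218, 228 and 248, led by *Xcr1*, and the 2 NK cell markers to at most 55.3. *Cd4* was at 90.1, 103.7 and 83.1 in WT against 58.5, 68.1 and 41.3 in UTX TCD and was called lower, at a log2 fold change of -0.74 ± 0.24 (SE; limma adjusted p = 0.0384). *Trdc*, the constant gene of the δ chain, was at 64851, 57642.8 and 59995.7 in WT against 57467.4, 52986.4 and 51937.5, lower in every UTX TCD library and inside the fold limit (limma adjusted p = 0.0451). The mice carry a transgenic receptor, and whether *Trdc* RNA came from γδ T cells was not tested. Its level is therefore not read as a share of such cells. The part of other cell types in the Schlafen results was not tested. In bulk samples fewer cells of a type and less RNA per cell cannot be told apart.

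To ask how the family differed between the genotypes, they were compared with limma on log2(normalized count + 1) over the 14459 genes with a mean of at least 10. A call needed both an adjusted p under 0.05 and a log2 fold change beyond 0.5 in either direction. Fold changes are UTX TCD over WT and on this scale understate those of low genes. In UTX TCD cells 5 of the 7 Schlafen genes were called higher, *Slfn1*, *Slfn3*, *Slfn4*, *Slfn5* and *Slfn8*, where 10.5% of all genes tested were called higher. None was called lower, against 7.05% of all genes, by limma, edgeR or DESeq2, and 0 were lower at an unadjusted p under 0.05 by any of these. The median log2 fold change of the 7 was 0.78, beside a median of -0.0001814 over all genes tested. In 6 of the 7, all but *Slfn2*, every UTX TCD library was above every WT library, as in 25.8% of all genes tested. For any single gene, 3 libraries against 3 allow no exact permutation p below 0.10.

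Of the short members, *Slfn1* was called and *Slfn2* was not. *Slfn1*, which slows the growth of thymocytes when overexpressed, was at 38014, 32706 and 38549 in WT and 58795, 60090 and 49817 in UTX TCD libraries. The groups did not overlap, and the lowest library of each was WT replicate 2 and UTX TCD replicate 3. Its mean was 1.54 times the WT mean, a log2 fold change of 0.63 ± 0.08 (SE; limma adjusted p = 0.000456). *Slfn2*, which is needed to keep T cells quiescent, was at 42619, 37738 and 46930 in WT and 43175, 47132 and 39870 in UTX TCD libraries. These ranges overlapped almost entirely, with a log2 fold change of 0.03 ± 0.08 (SE; limma adjusted p = 0.774), whose sign turned without WT replicate 2 or without UTX TCD replicate 2. The difference between the fold changes of *Slfn1* and *Slfn2* was not tested.

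The intermediate members had the largest fold changes of the family and low levels. *Slfn3* was at 639, 632 and 673 in WT and 1581, 1553 and 1468 in UTX TCD libraries. The 3 libraries of each genotype lay close together and far from the other genotype, with a mean 2.37 times higher and a log2 fold change of 1.24 ± 0.08 (SE; limma adjusted p = 5.99e-06). *Slfn4*, known mostly from activated macrophages and other myeloid cells, was at 18.8, 17.8 and 22.1 in WT and 56.2, 64.9 and 46.4 in UTX TCD libraries. All UTX TCD values were more than the highest WT value, and the log2 fold change was 1.46 ± 0.27 (SE; limma adjusted p = 0.00257). These values stand for only 19, 18, 29, 25, 81 and 63 reads in the 6 libraries, above the 3 reads taken as the floor, and the part of myeloid cells in them was not tested.

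Among the long members, *Slfn5* was at 43177, 32157 and 41699 in WT and 79325, 78629 and 48908 in UTX TCD libraries. UTX TCD replicate 3 was far below the other UTX TCD libraries and still above every WT library, and only *Slfn4* had a larger SE among the called members. The log2 fold change was 0.80 ± 0.18 (SE; limma adjusted p = 0.00739), and 1.03 without UTX TCD replicate 3. *Slfn8* was at 41162, 34679 and 41778 in WT and 70815, 72575 and 59195 in UTX TCD libraries. The same libraries were the lowest of their groups, the groups did not overlap, and the log2 fold change was 0.78 ± 0.09 (SE; limma adjusted p = 0.000206).

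*Slfn9*, which lies before *Slfn8* on the same strand, was at 1758, 1673 and 1785 in WT and 1991, 2112 and 1897 in UTX TCD libraries. The groups did not overlap, but the difference was small, with a log2 fold change of 0.20 ± 0.07 (SE; limma adjusted p = 0.0403). It was under the fold limit and not called, and over 17 alternatives its adjusted p ranged from 0.00978 to 0.164. With *Slfn9*, 6 of 7 members were higher at an adjusted p under 0.05 whatever the fold, as were 20.2% of all genes tested.

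**Figure D1:**
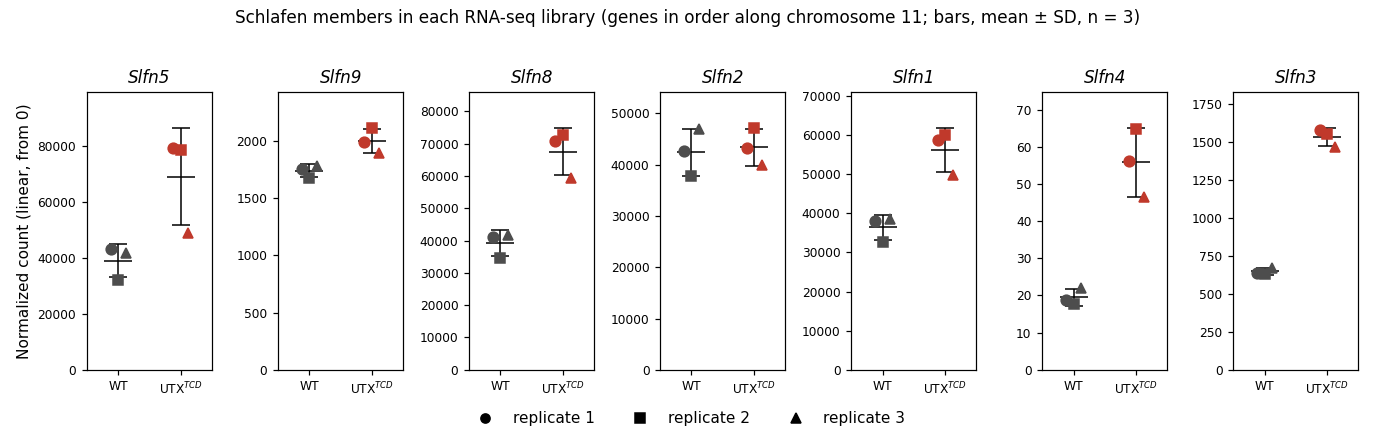
Normalized counts of the 7 Schlafen genes in each RNA-seq library, on linear axes from 0, with 1 point per library, its shape giving the replicate number, and bars for the mean ± SD (n = 3 per genotype). All UTX TCD points lie above the WT points except for *Slfn2*, and WT replicate 2 and UTX TCD replicate 3 are the lowest of their groups in all 7 panels.

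Relatives outside the 7 were not called or scarcely detected. *Slfn10-ps*, a pseudogene between *Slfn8* and *Slfn2*, was at 5403, 4537 and 5743 in WT and 5916, 6063 and 5176 in UTX TCD libraries. These ranges overlapped, with a log2 fold change of 0.13 ± 0.09 (SE; limma adjusted p = 0.288). *Slfn14* did not exceed 6.75, nor *Slfnl1* 9.91, in any library, and neither was tested.

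Per kilobase of RefSeq exons, which corrects for the length of each gene, *Slfn2* had the highest level in WT cells, 25500 ± 2764 normalized counts per kb (SD, n = 3), and *Slfn1* came next at 19240 ± 1706. Their WT ranges did not overlap. In UTX TCD cells *Slfn1* reached 29710 ± 2956 per kb and *Slfn2* 26080 ± 2185, and here the ranges overlapped. *Slfn8* rose from 9695 ± 972.5 to 16700 ± 1798 per kb and *Slfn5* from 6169 ± 945.8 to 10900 ± 2746, without overlap between the 2 genes in either genotype. Far below them came *Slfn3*, at 356.9 and 844.9 per kb, *Slfn9*, at 165.8 and 190.7 per kb, and *Slfn4*, at 4.89 and 14.0 per kb (WT and UTX TCD means). Exon lengths were the union over RefSeq transcripts, from 1664 bases for *Slfn2* to 10489 for *Slfn9*, and longer unions lower the level of a gene on this scale.

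Because the genes are close copies of each other, some reads may fit more than 1. Of the distinct 50-base windows of its RefSeq transcripts, *Slfn8* shared 14.9% with another family gene, most often *Slfn10-ps*, *Slfn3* shared 14.3% with *Slfn4*, *Slfn4* shared 7.72% and *Slfn9* 6.39%. *Slfn2* shared 4.27%, *Slfn1* 0.597% and *Slfn5* none. How the counting treated reads with several positions is not stated for RNA-seq, so values of *Slfn3*, *Slfn4*, *Slfn8* and *Slfn9* are uncertain by an amount these shares do not limit. In particular, reads of *Slfn4*, at its low level, cannot be told apart from reads of the parts that the more abundant *Slfn3* shares with it, so its level and its difference may not be its own. *Slfn5* overlaps the antisense gene *Slfn5os*, and without a stated strand setting reads of the pair cannot be told apart, though *Slfn5os* itself did not exceed 6.93 in any library.

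The 7 genes shared a pattern among libraries of the same genotype. In all 7 the lowest WT library was replicate 2 and the lowest UTX TCD library replicate 3, a pattern noticed in these values and found in 17.8% of all genes tested and in 21 of 30 other interferon-stimulated genes. Averaged over the 7, the log2 values centred on each gene's mean were -0.33, -0.51 and -0.27 in WT and 0.43, 0.49 and 0.18 in UTX TCD libraries. *Slfn2*, with no difference between genotypes, took part in it, with r = 0.922 between its deviations from the genotype means and those of the 7-gene mean, of which it is itself a member. These correlations are descriptions over 6 libraries, whose depths differ.

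Outside the family, the genes most like the 7-gene mean over the 6 libraries were *Gbp9*, *Rbm38*, *Cntrl*, *Irgm1* and *Ifit1*, with r from 0.998 to 0.999. *Gbp9* and *Irgm1*, which encode interferon-inducible GTPases, were called higher, at log2 fold changes of 0.51 and 0.53. *Ifit1*, an interferon-induced RNA-binding protein, was at 10209, 7482 and 10482 in WT and 34454, 35882 and 24123 in UTX TCD libraries. After the mean of each genotype was subtracted, the most alike were *Tor3a*, *Mbp*, *Cmpk2*, *Phf11c* and *Crkl*. *Mbp* did so without a difference between genotypes, at 48035, 44624 and 49037 in WT and 49172, 50325 and 44598 in UTX TCD libraries.

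Interferon-stimulated genes, the wider group to which many Schlafen genes belong, were read from a fixed list of 30 that leaves the Schlafens out. The list was chosen with earlier results of these data known, and genes off it were not assessed as a group. All 30 were tested and called higher, beside 10.5% of all genes. The median log2 fold change was 1.64, with a lowest of 0.57 for *Ifi35* and a highest of 3.74 for *Ifi44*. In all 30, every UTX TCD library was above every WT library. *Oasl1*, an oligoadenylate synthetase-like protein, was at 1019, 992 and 1010.5 in WT and 6732, 6885 and 5860 in UTX TCD libraries, a log2 fold change of 2.68 ± 0.07 (SE; limma adjusted p = 4.15e-08). The RNA sensor *Ifih1* (1.71), the antiviral GTPase *Mx1* (3.15) and the RNase L activator *Oas1a* (2.93) had the next smallest adjusted p-values, with log2 fold changes in parentheses. The most abundant genes of the list had smaller log2 fold changes, 0.64 for *Samd9l* and 0.74 for *Parp14*, which is the range of *Slfn1*, *Slfn5* and *Slfn8*.

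Genes of the interferon signalling pathway changed in part. Of 13 tested, 4 were called higher and 0 lower, beside 10.5% and 7.05% of all genes, 1 being lower at an unadjusted p under 0.05 by limma, edgeR and DESeq2 alike, and the median log2 fold change was 0.14. The called genes were *Irf7* (1.34), a transcription factor for interferon genes, *Usp18* (1.89) and *Socs1* (0.66), both inhibitors of the receptor, and *Stat2* (0.91), a subunit of the transcription factor ISGF3. *Irf7* was at 15322, 12369 and 16108 in WT and 36053, 38041 and 35925 in UTX TCD libraries. The kinase *Jak1*, the most abundant gene of the list, had a log2 fold change of 0.11 ± 0.06 (SE; limma adjusted p = 0.158).

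Genes of T cell quiescence, a state that *Slfn2* helps maintain, were called lower or not at all. Of 11 tested, 2 were called lower and 0 higher, beside 7.05% and 10.5% of all genes, 4 being higher at an unadjusted p under 0.05 by limma, edgeR and DESeq2 alike, and the median log2 fold change was -0.04. The called genes were *Tob1*, an antiproliferative factor, at 4398, 4854 and 4508 in WT and 2589, 2888 and 2488 in UTX TCD libraries, and *Vsir*, which encodes the checkpoint receptor VISTA, at a log2 fold change of -0.57. *Klf2*, a transcription factor of naive T cell homing, at -0.46, and *Foxp1*, a repressor of T cell activation, at 0.33, had adjusted p-values of 0.000109 and 0.000417 by limma and stayed within the fold limit. The most abundant, *Btg1*, had a log2 fold change of 0.13, and *Foxo1* one of -0.15.

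**Figure D2:**
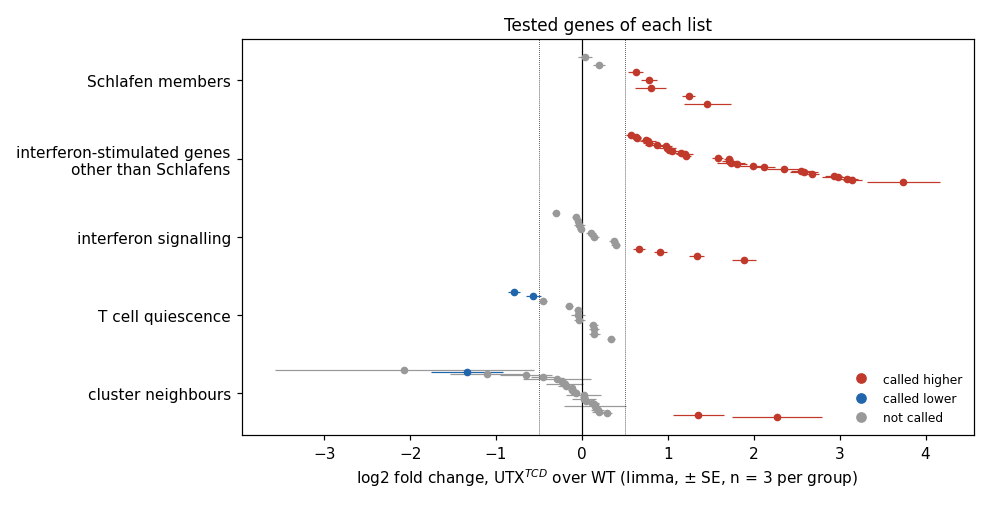
Log2 fold change, UTX TCD over WT, of every tested gene of each list, with bars for ± SE (limma, n = 3 per genotype), red for called higher, blue for called lower and grey for not called, and dotted lines at the fold limit of 0.5. All 30 interferon-stimulated genes and 5 of 7 Schlafen genes lie to the right of the upper limit.

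Along chromosome 11 the cluster spans chr11:82951349-83215154 on GRCm38, from *Slfn5* to *Slfn3*. Within 1 Mb of its ends, 47 other genes were listed, of which 27 were tested, 2 called higher and 1 lower, with a median log2 fold change of -0.07. These shares are near or below the 10.5% and 7.05% of all genes and are no result about the neighbours. Of the nearest tested genes before the cluster, *Unc45b*, a myosin chaperone whose end lies 7943 bases from it, was at 11.9, 14.8 and 13.0 in WT and 33.7, 39.2 and 33.2 in UTX TCD libraries. It was called, at 1.36 ± 0.29 on the log2 scale (SE; limma adjusted p = 0.00587), from a low level. The next, *Nle1* and *Fndc8*, had log2 fold changes of -0.23 and -0.20, and those after the cluster, *AI662270*, *AA465934* and *AI450353*, of -0.09, 0.03 and 0.20, none of them called.

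The other called neighbours were chemokine genes farther away, named here after their values were seen where the rule did not choose them. *Ccl3* was at 4.95, 0.987 and 4.58 in WT and 20.2, 19.2 and 16.2 in UTX TCD libraries, near the floor of 3 reads in WT. *Ccl5* was at 685, 1089 and 631 in WT and 227, 190 and 672 in UTX TCD libraries, so that the groups overlapped, and no neighbour was called lower by edgeR or DESeq2. *Rad51d*, at a log2 fold change of 0.29, was not called, nor were the abundant *Ap2b1*, at -0.12, and *Taf15*, at 0.04. In the window from 80 to 85 Mb, 9 of 56 tested genes were called higher, 16.1%, and 4 of 49 without the Schlafen genes, 8.16%, beside 11.9% on the whole chromosome. Of the 19 windows of 5 Mb with at least 20 tested genes, 4 had a higher share called higher than this window with the Schlafen genes counted. That place rests on the Schlafen genes themselves, since without them the share was below that of the whole chromosome.

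ATAC-seq peaks are given by the authors' mean log2 concentration per genotype, so a difference, UTX TCD minus WT, carries no error and no test here. Peaks were taken as listed from the authors' own comparison, so shares are of listed peaks only. The list is longer than the paper's count of differentially accessible peaks, so not every listed peak passed the paper's limits. Of the 12 peaks assigned to members, 9 were higher and 3 lower in UTX TCD cells, a share of higher peaks of 75.0% beside 68.8% of all listed peaks, and the median difference was 0.43 beside 0.49. A share this near the background is no result about the family. Peaks were listed for 4 members, *Slfn1* with 7, *Slfn5* with 3, and *Slfn8* and *Slfn9* with 1 each, and for none of *Slfn2*, *Slfn3* and *Slfn4*.

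Peaks that overlap the called genes *Slfn1*, *Slfn5* and *Slfn8* were all higher, by small differences. Of all listed peaks 68.8% were higher, and of those within 10 kb of a start 76.6%, so this is no result about these genes. The called *Slfn3* and *Slfn4* had no listed peak. The promoter peak of *Slfn1*, chr11:83116549-83116949, was at 11.17 in WT and 11.49 in UTX TCD libraries, and the peak in its intron 1, chr11:83118056-83118456, at 9.71 and 10.20. The promoter peak of *Slfn8*, chr11:83020685-83021085, was at 9.43 and 9.82. In *Slfn5*, by the deposited annotation, the peak in intron 1, chr11:82952520-82952920, was at 10.79 and 11.23, and that in intron 2, chr11:82954637-82955037, at 10.15 and 10.82. A further peak assigned to *Slfn5*, at chr11:82947388-82947788, which the file places 4514 bases before a start of the gene and which ends 3561 bases before its first start in RefSeq, lay in an intron of the antisense transcript and was at 11.25 and 11.78. These were the most accessible peaks of the cluster in both genotypes, and their differences were 0.32 to 0.68. Both *Slfn1* peaks, the *Slfn8* promoter peak and the *Slfn5* intron 1 peak differed by less than 0.5, the paper's limit for a log2 fold change. The *Slfn5* intron 2 peak and the peak before *Slfn5* differed by more.

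The 4 largest differences of the cluster were at weaker intergenic peaks, in both directions, while other intergenic peaks differed by less. After the end of *Slfn1*, the peak at chr11:83123999-83124399 was at 6.75 in WT and 8.18 in UTX TCD libraries, a difference of 1.43, the highest of the cluster, and its neighbour at chr11:83124902-83125302 differed by 0.42. Between *Slfn2* and *Slfn1*, all 3 listed peaks were lower in UTX TCD cells. They were chr11:83095634-83096034, at 7.88 and 6.62, chr11:83106349-83106749, at 6.00 and 5.36, and chr11:83107975-83108375, at 5.97 and 4.79. The peak at chr11:83000702-83001102, assigned to *Slfn9* by its start 9072 bases away, lies 1023 bases from *Slfn8* and was at 5.57 and 6.59. The peak in *Slfn10-ps*, chr11:83032173-83032573, assigned to no member, was lower, at 7.17 and 6.65.

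**Figure D3:**
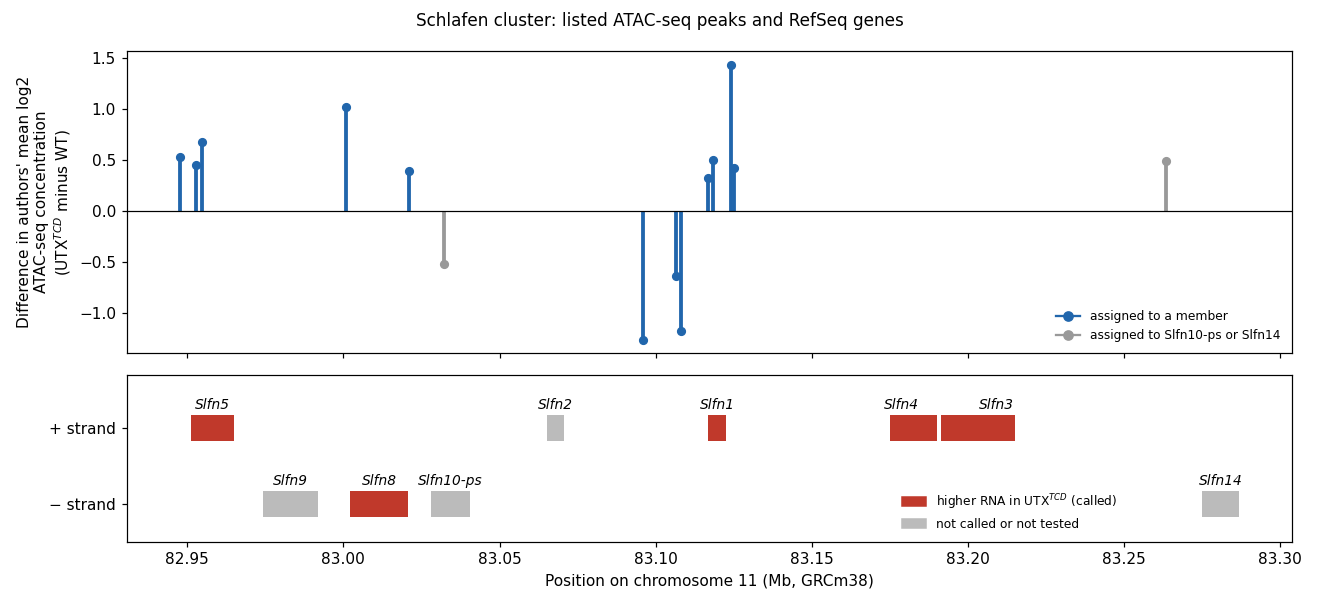
Map of the cluster on chromosome 11 (GRCm38), to scale, with the difference in the authors' mean log2 ATAC-seq concentration, UTX TCD minus WT, at each listed peak above the RefSeq genes, which are red where RNA was called higher. The 3 peaks between *Slfn2* and *Slfn1* point down, and every peak that overlaps *Slfn5*, *Slfn8* or *Slfn1* points up.

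Promoter windows of 300 bases, 250 before to 50 after the start of a transcript, were read for all 7 members from RefSeq on GRCm38 and searched on both strands for 3 motifs. The core of the interferon-stimulated response element, GAAANNGAAA, was found for 3 of 7 members, *Slfn5*, *Slfn8* and *Slfn9*, beside 3.44% of all 32851 promoter windows. The STAT site TTCNNNGAA was found for 0 of 7, beside 8.3%, and the TCF1 site CTTTGA for *Slfn4*, *Slfn5* and *Slfn8*, beside 16.0%. No match overlapped a match of another motif. The 3 promoters that hold the response element core are shown because 2 of these genes were called higher and 1 was not, with the match in capitals.
Slfn5, chr11:82951852-82952151, plus strand: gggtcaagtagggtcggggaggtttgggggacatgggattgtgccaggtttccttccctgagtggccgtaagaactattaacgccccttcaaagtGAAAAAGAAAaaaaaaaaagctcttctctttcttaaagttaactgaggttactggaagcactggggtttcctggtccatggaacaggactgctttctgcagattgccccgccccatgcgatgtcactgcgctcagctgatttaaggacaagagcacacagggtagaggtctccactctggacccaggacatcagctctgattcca
Slfn8, chr11:83020761-83021060, minus strand: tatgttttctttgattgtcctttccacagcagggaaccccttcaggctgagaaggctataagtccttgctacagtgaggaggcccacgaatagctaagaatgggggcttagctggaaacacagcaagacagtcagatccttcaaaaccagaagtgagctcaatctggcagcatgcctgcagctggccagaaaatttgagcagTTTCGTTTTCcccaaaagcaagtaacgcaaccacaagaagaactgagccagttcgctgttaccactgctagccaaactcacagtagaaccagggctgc
Slfn9, chr11:82991781-82992080, minus strand: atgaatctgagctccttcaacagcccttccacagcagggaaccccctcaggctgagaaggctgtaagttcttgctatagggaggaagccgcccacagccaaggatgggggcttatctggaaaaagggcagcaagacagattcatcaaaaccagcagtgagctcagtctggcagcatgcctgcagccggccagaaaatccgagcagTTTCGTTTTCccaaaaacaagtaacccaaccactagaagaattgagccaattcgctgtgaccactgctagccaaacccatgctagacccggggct
In *Slfn8* and *Slfn9* the match has the same letters on the opposite strand, TTTCGTTTTC, and starts, in the windows shown, 48 and 45 bases before the transcript start of the window. In *Slfn5* it starts 155 bases before that of its window, which is a later start than the first of the gene, so the match lies inside the gene as placed above. The *Slfn8* window lies in the promoter peak that was higher in UTX TCD cells, and those of *Slfn5* and *Slfn9* overlap no listed peak. The longest run the windows of *Slfn8* and *Slfn9* share is 20 bases. So genes with the core were called (*Slfn5*, *Slfn8*) and not called (*Slfn9*), and *Slfn1*, *Slfn3* and *Slfn4* were called with no such letters in these windows. A match is a description and not a site.

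Of the 12 member peaks, 2 hold the core, beside 6.88% of 23908 listed peaks on assembled chromosomes, 0 hold the STAT site, beside 11.9%, and 3 the TCF1 site, beside 30.6%. One of the 2 is the *Slfn8* promoter peak. The other is the peak in intron 1 of *Slfn5*, of which 120 bases are shown, with the core in capitals, because it is a second occurrence in the gene with the most accessible intronic peaks.
Slfn5, chr11:82952757-82952876, plus strand: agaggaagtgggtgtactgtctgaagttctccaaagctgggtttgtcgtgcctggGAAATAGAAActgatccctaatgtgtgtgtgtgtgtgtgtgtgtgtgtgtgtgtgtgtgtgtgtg

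The promoters of the 4 remaining members share another run of letters, ACTTCCTGG, noticed after the windows were compared and shown in capitals. It occurs in the windows of *Slfn1*, *Slfn2*, *Slfn3* and *Slfn4*, starting 74, 55, 42 and 73 bases before the transcript start of each window, in none of the other 3, and on either strand in 0.843% of all promoter windows. It was searched for as the longest run that all 4 windows hold, so its presence in them is no result. The 0.843% is the share for this run alone and not for any run that 4 windows might share. The 4 windows are shown because they come from the short and intermediate members, of which *Slfn2* alone was not called.
Slfn1, chr11:83116570-83116869, plus strand: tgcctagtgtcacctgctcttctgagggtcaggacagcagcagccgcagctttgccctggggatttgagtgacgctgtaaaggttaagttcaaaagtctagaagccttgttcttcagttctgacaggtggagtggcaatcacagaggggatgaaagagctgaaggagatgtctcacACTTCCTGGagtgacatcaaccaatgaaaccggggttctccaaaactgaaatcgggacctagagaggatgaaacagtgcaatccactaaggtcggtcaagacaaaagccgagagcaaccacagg
Slfn2, chr11:83064862-83065161, plus strand: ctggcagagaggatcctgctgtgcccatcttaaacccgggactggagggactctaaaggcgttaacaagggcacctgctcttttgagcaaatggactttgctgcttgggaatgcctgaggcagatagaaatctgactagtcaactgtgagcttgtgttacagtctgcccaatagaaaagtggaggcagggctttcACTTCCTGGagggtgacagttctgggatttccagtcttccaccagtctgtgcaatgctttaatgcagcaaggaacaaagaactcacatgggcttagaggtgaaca
Slfn3, chr11:83191080-83191379, plus strand: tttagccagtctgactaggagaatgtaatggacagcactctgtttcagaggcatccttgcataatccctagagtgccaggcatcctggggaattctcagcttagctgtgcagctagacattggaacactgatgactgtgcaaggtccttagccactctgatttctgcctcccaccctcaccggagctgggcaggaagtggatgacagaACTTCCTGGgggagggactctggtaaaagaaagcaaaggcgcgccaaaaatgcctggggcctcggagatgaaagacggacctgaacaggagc
Slfn4, chr11:83174936-83175235, plus strand: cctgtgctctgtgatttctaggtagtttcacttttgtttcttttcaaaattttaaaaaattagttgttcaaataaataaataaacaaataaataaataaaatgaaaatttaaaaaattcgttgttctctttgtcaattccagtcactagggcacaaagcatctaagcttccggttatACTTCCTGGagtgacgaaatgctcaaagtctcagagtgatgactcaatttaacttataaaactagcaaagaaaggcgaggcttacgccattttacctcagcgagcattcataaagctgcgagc
*Slfn1* and *Slfn4* share the longest run around it, 15 bases. As neighbouring copies in 1 family, these windows are not independent of each other.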

How the data were processed

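RNA-seq and ATAC-seq were each made from 3 WT and 3 UTX TCD libraries, grouped by the sample labels; p-values measure the spread between these libraries. For RNA-seq the authors aligned reads to mm10 with HISAT2 2.2.1, counted them with featureCounts and deposited a signal per gene, the count divided by a DESeq2 size factor. For ATAC-seq the authors called peaks with MACS2, compared them with DiffBind, annotated them with HOMER and deposited mean log2 concentrations per genotype. Gene annotation, strand setting and a transposase shift are not given in the sources used here. The deposited fold changes, p-values and FDR of the authors' comparisons were not used.

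Genes with a mean of at least 10 were compared by limma 3.58.1 under R 4.3.3 (eBayes with trend, pseudocount 1, Benjamini-Hochberg over all 14459 genes), after a check on simulated data. Dividing by the smallest step of each library gave whole reads for 100% of values (within 0.01 of a read, plus a millionth of large counts), which edgeR 4.0.16 and DESeq2 1.42.0 tested as alternatives and called 2541 and 2422 genes, beside 2538 by limma. No pair of libraries agreed within sampling noise. Floors of 3 reads cover counting error only. Alternatives covered the pseudocount, filter, scaling, test, replicate block, fold limit, peak choice and each library left out. Promoters and gene positions came from RefSeq on GRCm38.p6, the build of mm10. Named genes were the members, their relatives and *Kdm6a*, from each list the 4 with the smallest adjusted p and the 2 with the highest mean, the 3 nearest tested neighbours on each side, and the 5 most alike genes with a mean of at least 100 by Pearson r. Some items that these rules select are left out and not reported here. The members and lists were chosen with earlier results of these data known.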

Additional observations from a re-analysis of the deposited data

How the results depend on the processing

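The count of 5 Schlafen genes called higher held under every library left out, both other scalings, both pseudocounts, edgeR, DESeq2 and the 1.5-fold limit. It was 6 with no fold limit, which adds *Slfn9*, and 4 with a mean of at least 50, where *Slfn4* is not tested. With the replicate number as a block the count was 5, the lists' calls did not change, and *Slfn9* had a limma adjusted p of 0.0669. Deviations from the genotype means correlated at 0.305, -0.2 and 0.0897 between same-numbered libraries. With 3 libraries per genotype, these values cannot show whether the numbers pair libraries. *Slfn2* ranged from -0.047 to 0.11 on the log2 scale with a library left out, turning sign without WT replicate 2 (-0.047) and UTX TCD replicate 2 (-0.027).

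With no fold limit, 6 signalling genes were higher and 1 lower, 1 quiescence gene higher and 4 lower, and 5 neighbours higher and 5 lower, by construction. The 1.5-fold limit left 29 of the 30 interferon-stimulated genes called higher, without *Ifi35*, and 1 quiescence gene lower, and leaving out libraries gave 1 to 2 (1 without WT replicate 3). Neighbours called lower were 2 with no filter, 0 by edgeR and by DESeq2, and 0 to 3 with a library left out (0 without WT replicate 1 or 2 or UTX TCD replicate 1 or 2); neighbours called higher were 0 with a mean of at least 50, which leaves the low genes untested. The cause of the other moves was not tested. Over all peaks between the outermost members the median ATAC-seq difference was 0.40 (8 of 12 higher), and within 10 kb of a start 0.47 (9 of 10), where all listed peaks gave 0.52 and 76.6%. UTX TCD replicate 1, at 61512402 reads, limits low genes such as *Slfn4* most.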
